A study of Mus musculus with 8 samples.

Results

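The transcripts described here are 9 long noncoding RNAs, most of them of the nucleus or of imprinted regions: Malat1, Neat1, Miat, Kcnq1ot1, Meg3, Rian, Mirg, H19 and Gas5. They were given by Ensembl gene ID and are 9 of the 54838 IDs counted in each library and 9 of the 16716 IDs with enough reads to be tested. The study profiled the RNA that comes down with Exosc10 from dissociated cells of the cortex of C57BL/6 mouse embryos at embryonic day 12.5. In RNA immunoprecipitation sequencing (RIP-seq) an antibody pulls a protein out of a cell lysate, and the RNA bound to it or to the beads is sequenced. Libraries were made from 4 pull-downs with a rabbit antibody against Exosc10 and from 4 mock pull-downs, in which normal rabbit IgG took the place of that antibody. All libraries share the same strain, tissue and age, and input RNA was not analysed here. A value is therefore a share of one pull-down set against a share of the other, not an enrichment over the RNA of the cells, and fewer cells of a type in a lysate cannot be told apart from less RNA per cell.

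Exosc10 is a 3′-to-5′ exoribonuclease of the nuclear RNA exosome, the complex that trims and degrades RNA in the nucleus and nucleolus. The exosome matures ribosomal and small nucleolar RNAs (snoRNAs) and removes many noncoding transcripts. Long noncoding RNAs differ in how they meet it. The 3′ end of Malat1 folds into a triple helix that protects it from exonucleases. Gas5 is spliced, and snoRNAs are cut from its introns. Imprinted long noncoding RNAs are transcribed from a single parental allele and often carry microRNAs (miRNAs) or snoRNAs within their transcription unit.

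By RefSeq's annotation of GRCm38.p6, the build that UCSC calls mm10, all 9 symbols were matched. H19 lies at chr7:142575530-142578146 and holds 1 miRNA gene, Mir675. Meg3 at chr12:109540996-109571729, Rian at chr12:109603945-109661716 and Mirg at chr12:109734981-109749458 follow each other on the forward strand of one imprinted domain. Meg3 holds 2 miRNA genes, Rian holds 3 miRNA genes and 11 snoRNA genes, and Mirg holds 10 miRNA genes. Gas5 at chr1:161034601-161038539 holds 8 snoRNA genes. Together 30 mature miRNAs lie within 4 of the 9 genes. The following are shown because they are products of H19 and of the chromosome 12 units whose long RNAs were counted here. The capitals mark the seed, bases 2 to 8 of the mature miRNA.
mmu-miR-675-5p (H19): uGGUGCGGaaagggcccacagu
mmu-miR-675-3p (H19): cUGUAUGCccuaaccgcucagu
mmu-miR-770-5p (Meg3): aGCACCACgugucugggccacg
mmu-miR-370-3p (Rian): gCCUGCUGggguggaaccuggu
mmu-miR-453 (Mirg): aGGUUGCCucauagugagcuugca
mmu-miR-496a-5p (Mirg): aGGUUGCCcaugguguguuca
mmu-miR-154-5p (Mirg): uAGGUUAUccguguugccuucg
mmu-miR-410-3p (Mirg): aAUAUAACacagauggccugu

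Of the 30 mature miRNAs, miR-453 and miR-496a-5p, both of Mirg, share a seed, and the other seeds occur once each, 29 distinct seeds in all. The counts below are of the long host genes and say nothing of the mature miRNAs. For Gas5, RefSeq gives 2 transcription starts. The first 50 bases from the second start, at chr1:161035166-161035215 on the forward strand, are shown because Gas5 is among the RNAs that were lower with Exosc10 and is known in mouse as an RNA with a terminal oligopyrimidine start, a feature of transcripts of the translation machinery. The capitals mark the first 5 bases, all pyrimidines.
Gas5, second start: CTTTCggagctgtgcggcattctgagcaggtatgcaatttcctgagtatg

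The letters CTTTC at the first base, on the strand of the gene, were found in 45 of 32851 start windows of the table (0.137%). These letters were taken from the second Gas5 start, and other runs of pyrimidines were not counted. The share is therefore not that of terminal oligopyrimidine starts. The first Gas5 start does not begin with these letters. The sequence describes the annotated start and shows no binding.

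The Exosc10 libraries held 21731971 to 34506709 gene counts each, and the IgG libraries held 20967743 to 30199449. Each of the 9 RNAs was counted in every library, with 118 reads for Neat1 in Exosc10 library 1 as the lowest count and 25956 reads for H19 in IgG library 1 as the highest. The libraries numbered 1 were the shallowest of each group and stood apart from the others of their group for several of these RNAs. Nothing in the labels ties the libraries of a group to separate litters or cultures, and the p-values therefore cover only the spread among these libraries, which may be technical. Levels are given as CPM, the reads of a gene per 1000000 reads of a library after TMM correction (trimmed mean of M-values), and are compared between libraries, not between genes.

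Among the 9 RNAs, H19, Gas5 and Neat1 were lower in the Exosc10 pull-down than in the IgG pull-down and none was higher. The calls are those of edgeR's quasi-likelihood test at a threshold of 0.05 on the p adjusted over all 16716 genes. Of all tested genes, 5.82% were lower and 7.92% higher, 13.7% in all. With upper-quartile scaling the split of calls over all genes turned, to 1025 higher and 1369 lower, against 1324 higher and 973 lower with TMM. The log2 fold change, given throughout as Exosc10 over IgG, was negative for 8 of the 9 RNAs and positive for Malat1, while it was negative for 52.4% of all tested genes. Without IgG library 1, without both libraries numbered 1 and with limma-voom, Miat and Kcnq1ot1 were positive as well, which left 6 of the 9 negative. Throughout, limma-voom was run with sample weights, which let more variable libraries count for less. The median log2 fold change was -0.52 over the 9 RNAs and -0.03 over all tested genes, whose interquartile range ran from -0.40 to 0.34. Together the 9 RNAs took 0.103% to 0.125% of an Exosc10 library's counts and 0.168% to 0.286% of an IgG library's counts, or 0.168% to 0.185% without IgG library 1. H19 alone made up 23.1% to 33.8% of these reads in the Exosc10 libraries and 43.3% to 46.9% in the IgG libraries. Without H19, the other 8 took 0.0782% to 0.0886% of an Exosc10 library and 0.0892% to 0.162% of an IgG library. The IgG range was 0.0892% to 0.105% without IgG library 1. Gas5 is among these 8 and stood at 181 to 258 CPM in the Exosc10 libraries, against 385 to 430 CPM in the IgG libraries. The gap left without H19 therefore includes Gas5 and does not show a lower share of the remaining RNAs. Their joint share without Gas5 was not computed.

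**Figure D1:**
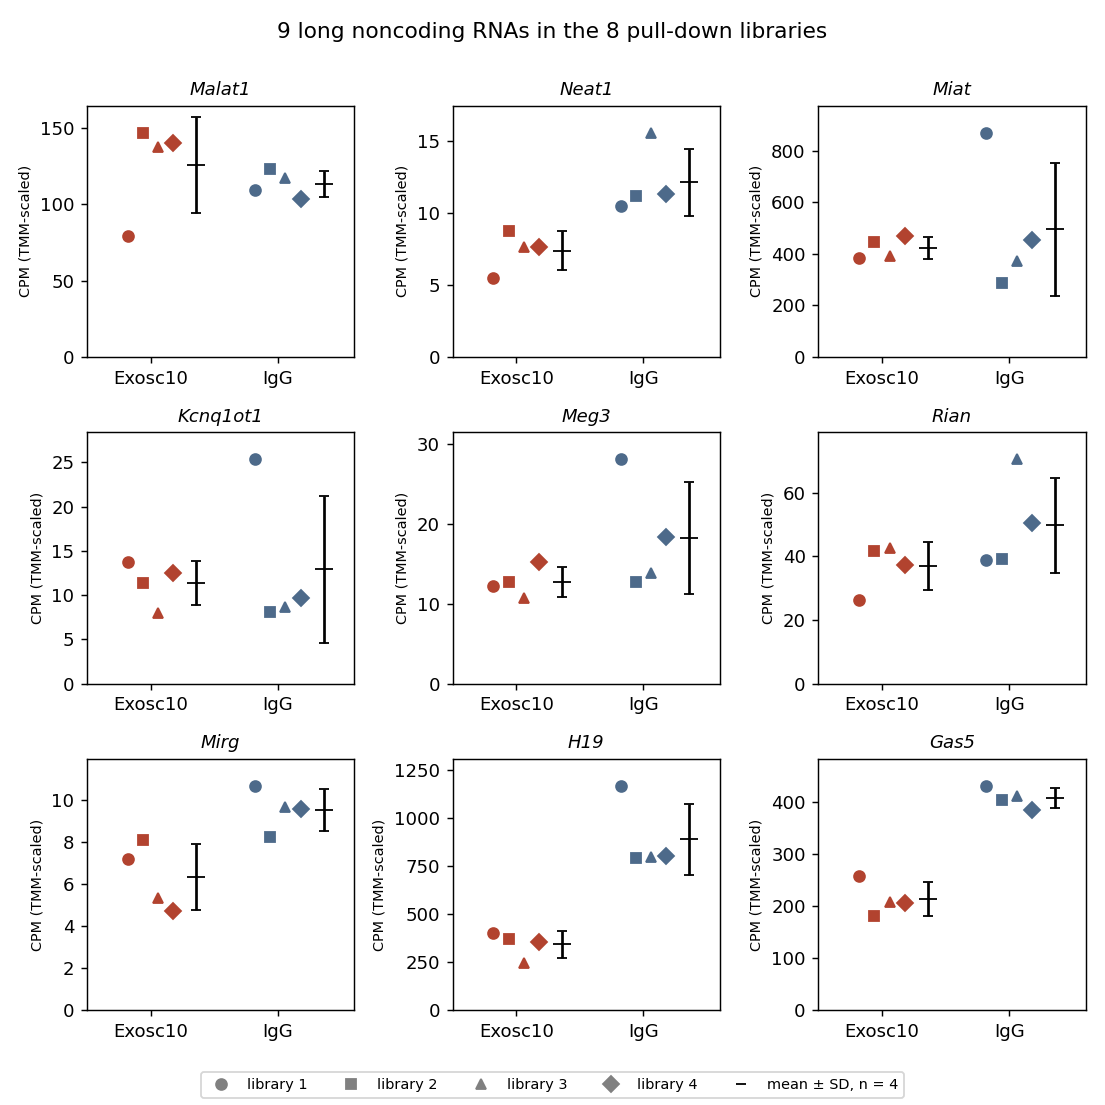
TMM-scaled CPM of the 9 long noncoding RNAs, one panel a gene with its own vertical axis from 0, in the Exosc10 (left) and IgG (right) libraries; each marker is a library and the bar is the mean with its SD (n = 4 each). H19, Gas5, Neat1 and Mirg have no overlap between the groups, which held for 19.1% of all tested genes. IgG library 1 is far above the other IgG libraries for Miat and Kcnq1ot1.

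H19 had the largest difference of the 9. It is a maternally expressed imprinted RNA, abundant in embryonic tissues and shut down in most of them after birth, and its first exon is the precursor of miR-675, whose arms are printed above. H19 (ENSMUSG00000000031) stood at 402, 369, 244 and 354 CPM in Exosc10 libraries 1 to 4, against 1164, 790, 797 and 800 CPM in IgG libraries 1 to 4. The highest Exosc10 library lay well below the lowest IgG library, and 8.45% of all tested genes had their groups apart in this direction. The mean was 342 ± 68.5 CPM over the Exosc10 libraries and 888 ± 184 CPM over the IgG libraries (SD, n = 4 per group). This gave a log2 fold change of -1.37 ± 0.21 (SE, 95% confidence interval -1.82 to -0.93, edgeR adjusted p = 0.00201). On the linear scale H19 was 2.59-fold lower in the Exosc10 pull-down (interval 1.90 to 3.54), and 1.11% of all tested genes had a more negative log2 fold change. IgG library 1 was high for H19, while the other 3 IgG libraries lay between 790 and 800 CPM. Without that library the log2 fold change was -1.21 and the edgeR adjusted p 0.00134, and with every library thinned to equal depth it was -1.38.

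Gas5 was the RNA with the steadiest levels in the mock pull-down. Gas5 accumulates in cells whose growth has stopped, and its spliced RNA is bound by ribosomes and turned over by nonsense-mediated decay. Gas5 (ENSMUSG00000053332) stood at 258, 181, 209 and 206 CPM in Exosc10 libraries 1 to 4, against 430, 404, 412 and 385 CPM in IgG libraries 1 to 4. The ranges did not overlap, with Exosc10 below IgG, which held for 8.45% of all tested genes. The spread within IgG was small beside the gap. The mean was 214 ± 32.1 CPM over the Exosc10 libraries and 408 ± 18.9 CPM over the IgG libraries (SD, n = 4 per group). Gas5 had a log2 fold change of -0.93 ± 0.17 (SE, 95% confidence interval -1.30 to -0.57, edgeR adjusted p = 0.00455), so that Gas5 was 1.91-fold lower with Exosc10 (interval 1.48 to 2.46). The strand setting of the counting was not given in the sources used here. The annotated span of Gas5 overlaps those of 2 protein-coding genes, so their reads could be counted with Gas5. Reads of the snoRNAs within that span could likewise be counted with Gas5, and whether they were was not tested.

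The 2 RNAs of nuclear bodies lie side by side on chromosome 19, Malat1 at chr19:5795690-5802672 and Neat1 at chr19:5824708-5845480. Malat1 is an abundant RNA of nuclear speckles, where splicing factors gather, and its span also holds the tRNA-like mascRNA. Neat1 is the scaffold of paraspeckles, in which RNA-binding proteins and some RNAs are held. Neat1 was lower with Exosc10, and Malat1 did not pass the test.

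Neat1 (ENSMUSG00000092274) stood at 5.47, 8.71, 7.63 and 7.66 CPM in Exosc10 libraries 1 to 4, against 10.5, 11.2, 15.6 and 11.3 CPM in IgG libraries 1 to 4. The groups did not overlap, which held for 19.1% of all tested genes, and 8.45% of all tested genes had every Exosc10 library below every IgG library. The mean was 7.37 ± 1.36 CPM over the Exosc10 libraries and 12.1 ± 2.32 CPM over the IgG libraries (SD, n = 4 per group). Neat1 had a log2 fold change of -0.72 ± 0.22 (SE, 95% confidence interval -1.18 to -0.25, edgeR adjusted p = 0.0418), a 1.64-fold lower share (interval 1.19 to 2.27). This call was close to the threshold. It was lost, with the sign kept, when any library other than IgG library 1 was left out (edgeR adjusted p 0.0659 to 0.142), without a filter on low counts (0.0608) and after thinning to equal depth (0.0508).

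Malat1 (ENSMUSG00000092341) stood at 79.3, 147, 138 and 140 CPM in Exosc10 libraries 1 to 4, against 109, 123, 117 and 104 CPM in IgG libraries 1 to 4. Exosc10 library 1 was the lowest of all libraries, and the other Exosc10 libraries were the 3 highest. The mean was 126 ± 31.4 CPM over the Exosc10 libraries and 113 ± 8.72 CPM over the IgG libraries (SD, n = 4 per group). A log2 fold change of 0.15 ± 0.20 (SE) did not pass the test (edgeR adjusted p = 0.646), and its 95% confidence interval of -0.27 to 0.58 leaves room for a difference in either direction. Without Exosc10 library 1 the log2 fold change was 0.33 (edgeR adjusted p = 0.148), and without both libraries numbered 1 it was 0.30 (edgeR adjusted p = 0.0812). Over the 18 alternatives it ran from 0.07 to 0.34 and passed in none, with an adjusted p of 0.0541 to 0.871.

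Because scaling cancels in a ratio of read counts within a library, Neat1 was also set against Malat1. Neat1 had 0.0689, 0.0592, 0.0554 and 0.0547 reads per Malat1 read in Exosc10 libraries 1 to 4, against 0.0959, 0.0905, 0.133 and 0.109 in IgG libraries 1 to 4. Every Exosc10 library lay below every IgG library. The log2 ratio differed by -0.84 between the groups, Exosc10 minus IgG (exact two-sided permutation test over 70 assignments, p = 0.0286, the smallest it can give, and adjusted p = 0.114 over the 4 ratios tested), which does not pass 0.05 after adjustment. These ratios compare the groups and not the amounts of the 2 RNAs, whose lengths differ.

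**Figure D2:**
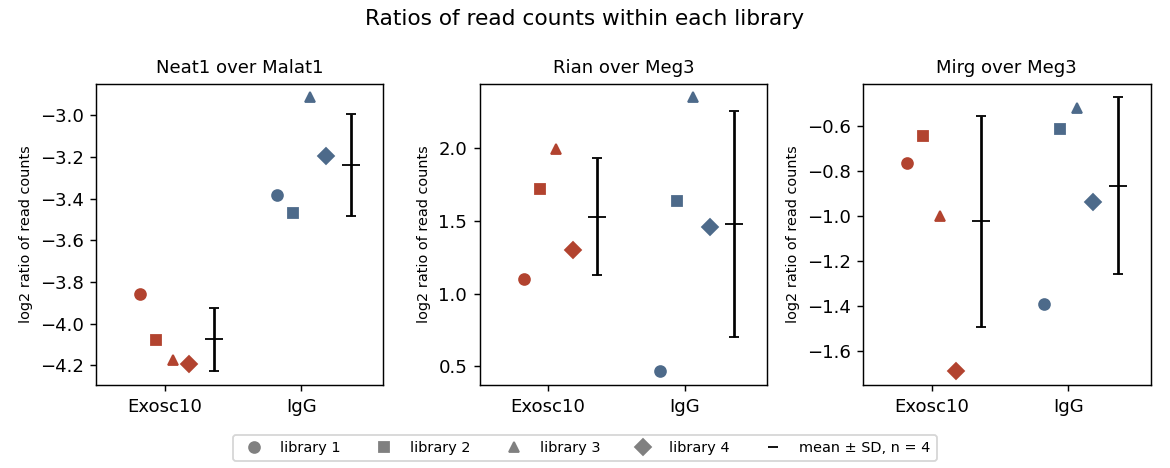
Log2 ratios of read counts within each library for Neat1 over Malat1, Rian over Meg3 and Mirg over Meg3, in Exosc10 (left) and IgG (right) libraries; markers are libraries and the bar is the mean with its SD (n = 4 each; vertical axes do not start at 0). The groups separate for Neat1 over Malat1 and overlap for the other ratios.

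Miat, also called Gomafu, is a spliced RNA retained in the nucleus of neurons and progenitors, at chr5:112213228-112228948. Miat (ENSMUSG00000097767) stood at 384, 445, 393 and 470 CPM in Exosc10 libraries 1 to 4, against 870, 288, 373 and 452 CPM in IgG libraries 1 to 4. The IgG values spanned both sides of the Exosc10 values. The mean was 423 ± 41.2 CPM over the Exosc10 libraries and 496 ± 258 CPM over the IgG libraries (SD, n = 4 per group), and the log2 fold change was -0.23 ± 0.28 (SE, 95% confidence interval -0.83 to 0.37, edgeR adjusted p = 0.620). Its sign depended on IgG library 1, since without that library it was 0.20 (edgeR adjusted p = 0.466).

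Kcnq1ot1 is a paternally expressed RNA that silences neighbouring genes in cis. It covers chr7:143213111-143296547, on the reverse strand within the span of Kcnq1, so reads from introns of unspliced Kcnq1 RNA could be counted with it. Kcnq1ot1 (ENSMUSG00000101609) stood at 13.8, 11.3, 8.02 and 12.6 CPM in Exosc10 libraries 1 to 4, against 25.3, 8.07, 8.63 and 9.70 CPM in IgG libraries 1 to 4. Outside IgG library 1, the IgG values lay in the lower part of the Exosc10 range. The log2 fold change was -0.18 ± 0.33 (SE, 95% confidence interval -0.89 to 0.54, edgeR adjusted p = 0.760), and without IgG library 1 it was 0.38 (edgeR adjusted p = 0.226).

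The 3 RNAs of the imprinted domain on chromosome 12 are transcribed from the maternal allele. Meg3, also called Gtl2, is a nuclear RNA, Rian hosts box C/D snoRNAs, and Mirg hosts a cluster of miRNAs. None of the 3 passed the test, and all had negative log2 fold changes. Meg3 (ENSMUSG00000021268) stood at 12.3, 12.7, 10.7 and 15.2 CPM in Exosc10 libraries 1 to 4, against 28.0, 12.7, 13.9 and 18.4 CPM in IgG libraries 1 to 4. The groups overlapped. Its log2 fold change was -0.52 ± 0.24 (SE, 95% confidence interval -1.04 to 0.0063, edgeR adjusted p = 0.168), and it was -0.23 without IgG library 1 (edgeR adjusted p = 0.432).

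Rian (ENSMUSG00000097451) stood at 26.3, 41.6, 42.7 and 37.4 CPM in Exosc10 libraries 1 to 4, against 38.8, 39.4, 70.5 and 50.4 CPM in IgG libraries 1 to 4. The lowest value was that of Exosc10 library 1 and the highest that of IgG library 3, and the groups overlapped. Its log2 fold change was -0.43 ± 0.22 (SE, 95% confidence interval -0.90 to 0.05, edgeR adjusted p = 0.213). Without IgG library 3 it was -0.21 (edgeR adjusted p = 0.586).

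Mirg (ENSMUSG00000097391) stood at 7.23, 8.11, 5.37 and 4.71 CPM in Exosc10 libraries 1 to 4, against 10.7, 8.27, 9.66 and 9.56 CPM in IgG libraries 1 to 4. The groups did not overlap, although Exosc10 library 2 and IgG library 2 were close. Of all tested genes, 8.45% had every Exosc10 library below every IgG library. The mean was 6.35 ± 1.58 CPM over the Exosc10 libraries and 9.54 ± 0.99 CPM over the IgG libraries (SD, n = 4 per group). A log2 fold change of -0.59 ± 0.23 (SE, 95% confidence interval -1.07 to -0.11) had an unadjusted p of 0.0202 and an edgeR adjusted p of 0.0947, which does not pass 0.05. Mirg passed in 2 of 18 alternatives, limma-voom and the replicate block. These called 38.1% and 26.9% of all tested genes, against 13.7% in the main fit. Over the 18 alternatives the adjusted p of Mirg ran from 0.0306 to 0.260.

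Within the domain the 3 RNAs were not counted in a constant proportion from library to library. Rian had 2.14, 3.28, 3.98 and 2.46 reads per Meg3 read in Exosc10 libraries 1 to 4, against 1.38, 3.11, 5.08 and 2.75 in IgG libraries 1 to 4. The lowest and the highest ratio were both in the IgG group, and the group means of the log2 ratio differed by 0.050 (exact permutation test, p = 0.914, adjusted p = 0.914). For Mirg over Meg3 the log2 ratio differed by -0.16 (exact permutation test, p = 0.571, adjusted p = 0.762) and for Mirg over Rian by -0.21 (exact permutation test, p = 0.486, adjusted p = 0.762). Summed over Meg3, Rian and Mirg, the level was 45.8, 62.4, 58.8 and 57.4 CPM in Exosc10 libraries 1 to 4, against 77.5, 60.3, 94.1 and 78.4 CPM in IgG libraries 1 to 4, and the groups overlapped through Exosc10 library 2 and IgG library 2. The annotated spans of Meg3 and Rian both overlap that of Rtl1, so that its reads could be counted with theirs.

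**Figure D3:**
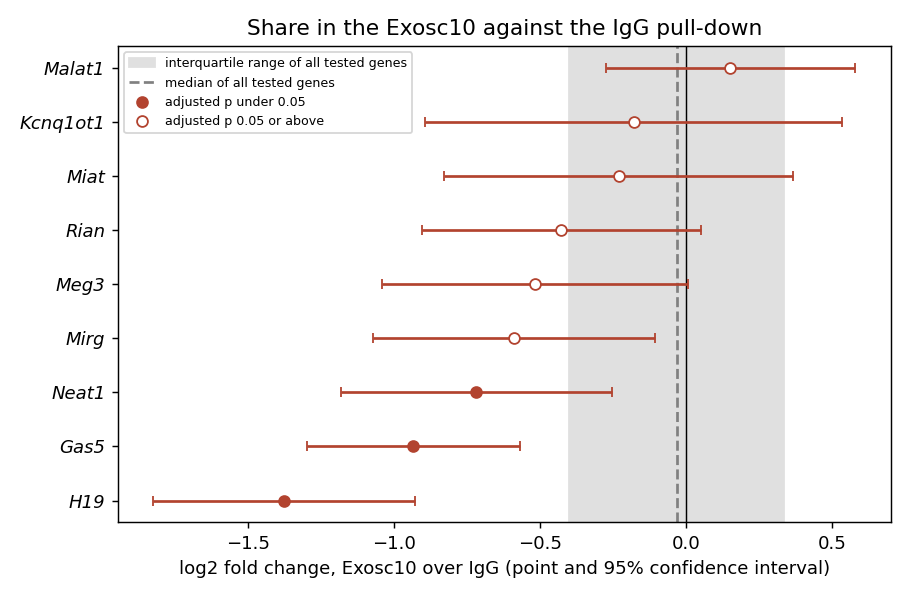
Log2 fold change of each RNA, Exosc10 over IgG, with its 95% confidence interval from the edgeR fit over all tested genes; filled points have an adjusted p under 0.05, the grey band is the interquartile range of all tested genes and the dashed line their median. H19, Gas5 and Neat1 are filled at -1.37, -0.93 and -0.72, and Malat1 is the only RNA with a positive value, 0.15.

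The order of the log2 fold changes ran from H19 over Gas5, Neat1, Mirg, Meg3, Rian, Miat and Kcnq1ot1 to Malat1. The 95% confidence intervals of neighbours in this order overlapped, so that only RNAs far apart in it are separated by their intervals. The interval of H19 lay entirely below those of Rian, Miat, Kcnq1ot1 and Malat1, and the interval of Gas5 lay entirely below that of Malat1. No test of the difference between fold changes of 2 RNAs was made, apart from the ratios above.

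The RNAs fell into different patterns in how single libraries departed from their group. In IgG library 1, log2 CPM lay above the IgG mean by 1.14 for Kcnq1ot1, 0.94 for Miat, 0.69 for Meg3 and 0.41 for H19, while Rian had a deviation of -0.32 and Neat1 of -0.19. In IgG library 3, Rian was above the mean by 0.55 and Neat1 by 0.38, while Meg3 deviated by -0.32. In Exosc10 library 1, Malat1, Rian and Neat1 deviated by -0.63, -0.47 and -0.41, while Kcnq1ot1, Gas5 and H19 deviated by 0.30, 0.28 and 0.26. Rian thus moved with Neat1 in these libraries and against Meg3 in IgG libraries 1 and 3, although Rian and Meg3 belong to the same domain.

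**Figure D4:**
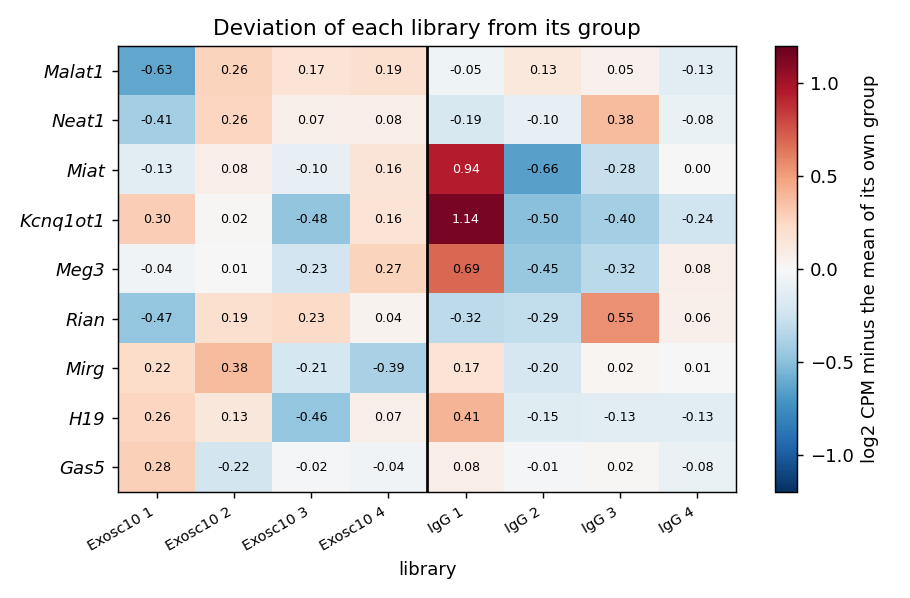
Log2 CPM of each RNA in each library minus the mean of its own group, with the value in each cell; red is above and blue below the group mean, Exosc10 libraries are left of the line and IgG libraries right of it. The largest deviations are those of Kcnq1ot1 and Miat in IgG library 1, at 1.14 and 0.94.

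For 3 of the RNAs the genes with the most similar deviations were sought among 11710 other genes with a mean of at least 5 CPM, over the 8 libraries and with each group's mean subtracted. The highest Pearson correlation was 0.996 with Malat1, for ENSMUSG00000037503, 0.986 with Meg3, for ENSMUSG00000048988, and 0.984 with Gas5, for ENSMUSG00000031170. The next gene in each search had a correlation of 0.992, 0.982 and 0.976 with Malat1, Meg3 and Gas5. The files pair these IDs with no symbol. They were picked as the highest of many over few libraries that share depth and preparation, and the values describe these libraries alone.

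**Figure D5:**
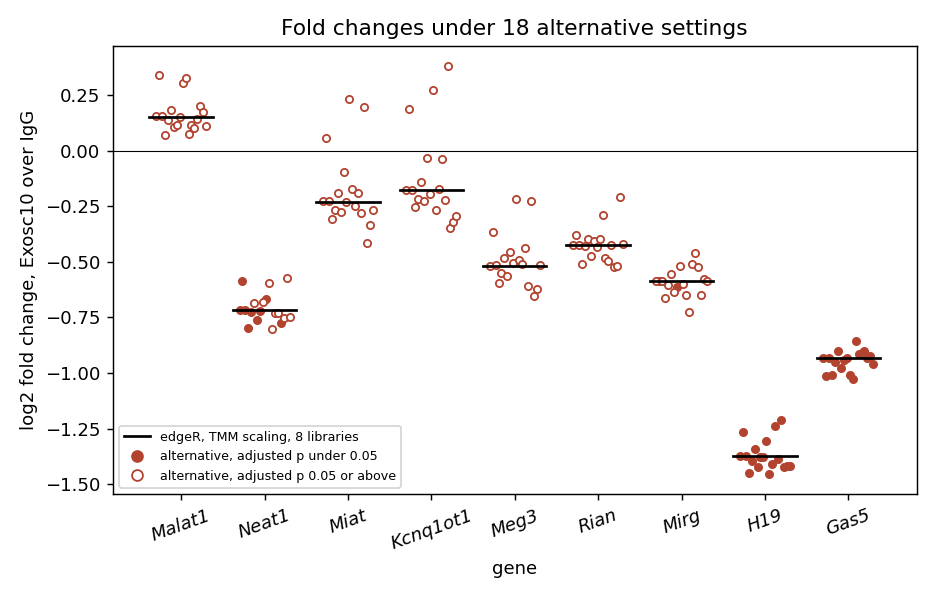
Log2 fold change of each RNA, Exosc10 over IgG, under 18 alternative settings (points, filled where the adjusted p is under 0.05) and in the edgeR fit with TMM scaling and all 8 libraries (line). All points of H19 and Gas5 are filled, those of Neat1 are filled in 9 settings and those of Mirg in 2, and points of Miat and Kcnq1ot1 lie on both sides of 0.

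Across the 18 alternatives H19 and Gas5 were called lower in each, with log2 fold changes of -1.45 to -1.21 for H19 and -1.03 to -0.86 for Gas5. Neat1 was negative in all 18, from -0.80 to -0.57, and called in 9. Meg3, Rian and Mirg were negative in all 18, and Malat1 was positive in all 18. No alternative called any of the 9 RNAs higher with Exosc10.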

How the data were processed

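The authors deposited one table of read counts per library, raw and without normalization, for 54838 Ensembl gene IDs. Per the submitters' processing notes, the tools were STAR 2.5.2a, featureCounts 1.5.0-p1 and bcl2fastq 2.17.1.14, and the genome build was mm10. The sources used here give no annotation release, strand setting or handling of multiply mapped reads. Groups and library numbers came from the sample titles. The 9 members and all gene lists were chosen with earlier results of these data known. All 9 members are named whatever their values.

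Genes were kept by filterByExpr (minimum count 10, minimum total 15), which left 16716, scaled by TMM and tested with edgeR 4.0.16 in R 4.3.3 (quasi-likelihood F-test, no covariate, Benjamini-Hochberg over all genes, threshold 0.05). The SE is the size of the log2 fold change divided by the square root of F. Log2 CPM used a prior count of 2. Alternatives used DESeq2 1.42.0, limma-voom with sample weights (limma 3.58.1), other scalings and filters, a replicate block, thinning and left-out libraries. With no molecular identifiers named, reads are not necessarily independent molecules.

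The symbols came with the member IDs. The RefSeq table (GRCm38.p6, 49997 genes, 0 with an Ensembl ID) named no other ID, so the lists of other snoRNA hosts, other noncoding RNAs, imprinted genes, speckle proteins, exosome cofactors and cell type markers fixed by symbol were not read, and the cortex label was not checked against its markers. Nor could Exosc10 itself be read.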

Additional observations from a re-analysis of the deposited data

Results flagged for a closer look

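In 18 groups of 4 libraries, 9 RNAs in each of the Exosc10 and IgG groups, 4 held an outlying library by Dixon's test. For independent groups of normally distributed values, chance alone gives about 1 group in 20. The 18 groups share the same libraries, so that rate need not hold here. The share of such groups over all tested genes was not computed, so the 4 cannot be read as a feature of these RNAs. Malat1 in Exosc10 library 1 was at 79.3 CPM, below 138 to 147 CPM in the other Exosc10 libraries. Neat1 in IgG library 3 was at 15.6 CPM, above 10.5 to 11.3 CPM in the other IgG libraries. Kcnq1ot1 in IgG library 1 was at 25.3 CPM, above 8.07 to 9.70 CPM in the others. H19 in IgG library 1 was at 1164 CPM, above 790 to 800 CPM in the others. Of these 4, 2 were in IgG library 1.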

How the results depend on the processing

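The calls for H19 and Gas5 held in all 18 alternatives and that for Neat1 in 9. Of the RNAs without a call, Miat turned to 0.055 with limma-voom, 0.20 without IgG library 1 and 0.23 without both libraries numbered 1, and Kcnq1ot1 to 0.19, 0.38 and 0.27 in the same settings; without 1 library in turn Miat ran from -0.41 to 0.20 and Kcnq1ot1 from -0.35 to 0.38. None of these passed the test, and the cause was not tested. Over all genes, 2297 were called, 1324 higher and 973 lower. DESeq2 gave 3391 calls (1869 higher, 1522 lower), limma-voom 6374 calls (3363 higher, 3011 lower), and leaving out both libraries numbered 1 gave 5463 (2908 higher, 2555 lower). Leaving out 1 library gave 880 to 4046 calls, 588 to 2218 higher and 261 to 1828 lower, the high ends all without IgG library 1. Deviations of same-numbered libraries correlated at 0.34, 0.095, 0.34 and 0.22, all positive. The labels do not say whether same-numbered libraries are pairs, and this was not tested. If they are, the main fit leaves the pairing out. In the fit with a replicate block 4495 genes were called, 2489 higher and 2006 lower. In that fit 4 of the 9 RNAs were lower, H19, Gas5, Neat1 and Mirg (edgeR adjusted p = 0.0415 for Mirg). The 4 count ratios were recomputed without each library and without both libraries numbered 1, a choice made after the data were seen: Neat1 over Malat1 ran from -0.96 to -0.73, Mirg over Rian from -0.44 to -0.046, and the signs of Rian over Meg3 (-0.29 to 0.34) and Mirg over Meg3 (-0.42 to 0.07) were not fixed. The other pathway lists were not run. Neat1 and Mirg rested on the fewest reads, 118 to 377 and 156 to 291 per library.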
